A study of Mus musculus with 7 samples.

Results

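Pnliprp2, Pla2g1b, Amy2b, Amy2a5, Try10 and Ctrc are named as genes of digestive enzymes of the pancreatic acinar cell. Their RNA was followed here in every mouse of a single-cell RNA-seq study of the pancreas. The members were taken by name: all 6 had a row in each of the 3 deposited count tables, which list 33864 genes in all and 25469 in every table. Their unique molecular identifiers (UMIs, each marking 1 captured RNA molecule) were summed per mouse over the cells whose deposited cluster label names acinar cells, and over all other cells. Whether other cells make some of this RNA themselves was not tested. The study compared 3 groups of C57BL/6 mice aged 2 months (the i4F line is described in the methods as C57BL/6J.Ola.Hsd), with 1 library of the 10x Genomics 3′ assay per mouse. The 2 WT mice drank doxycycline at 1 mg/ml, with 7.5% sucrose, for 7 days. The 3 i4F mice (genotype i4F-B) drank the same doxycycline, and carried 1 copy each of the transactivator rtTA, in Rosa26, and of the 4 reprogramming factors (Oct4, Sox2, Klf4, c-Myc) under its control, in Pparg, a system that acts in all tissues and not in acinar cells alone. The 2 caerulein mice were wild type and received caerulein, an analogue of cholecystokinin that overstimulates acinar cells, by 7 intraperitoneal injections of 100 µg/kg a day on 2 days. The labels give no doxycycline for them. Caerulein and the absence of doxycycline can therefore not be told apart in any comparison with WT or i4F mice. Library names start with AL in WT 1 and all i4F mice, and with AM in WT 2 and both caerulein mice.

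Acinar cells make up most of the exocrine pancreas. They pack digestive enzymes into zymogen granules and release them into the ducts, proteases mostly as inactive precursors. The enzyme genes are kept active by the transcription factor complex PTF1, of which Ptf1a and Rbpjl are the pancreatic subunits, together with Bhlha15 (Mist1) and Nr5a2. When acinar cells are stressed or injured they can lose these transcripts and gain duct-like features, a process known as acinar-to-ductal metaplasia. Acinar cells also break easily during dissociation, and the RNA they spill enters droplets that hold other cells.

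The members fall into 3 roles. Pnliprp2 is a lipase of the pancreatic lipase family (GRCm38, chr19:58759719-58777534, plus strand, 12 exons in its annotated transcript), and Pla2g1b is the secreted pancreatic phospholipase A2 (chr5:115466262-115474722, plus strand). Amy2b and Amy2a5 are pancreatic amylases, which cut starch. Both lie on the minus strand of chromosome 3, at chr3:113147656-113156727 and chr3:113247178-113258837, with 90450 bases between them. Try10 is a trypsinogen (chr6:41354105-41357914, plus strand). Ctrc is the gene named for chymotrypsin C, a protease that acts on trypsinogen and its activation peptide (chr4:141814962-141846359, minus strand). The annotations differ on the status of 2 members. GENCODE M21 lists Amy2b as an unprocessed pseudogene and RefSeq lists it as protein coding. Ctrc is protein coding in GENCODE and a transcribed pseudogene in RefSeq. Only RNA was counted, and whether these 2 genes give a working enzyme in these mice was not tested.

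Some members can share reads with near copies. The Amy2b and Amy2a5 transcripts were 97.5% identical over 1579 aligned positions, and 84 of the 441 windows of 60 bases in the last 500 bases of Amy2b, where a 3′ assay reads, occurred unchanged in another amylase gene, against 8 of 441 for Amy2a5. Try10 shared 165 of 441 such windows (37.4%) with other trypsinogen genes, of which Gm5409 has its own row. Pnliprp2, Pla2g1b and Ctrc shared none. The Amy2a5 windows are those of a GENCODE transcript of 3715 bases, whose 3′ end lies at 113247178 on chromosome 3. RefSeq ends the gene at 113249178, so the RefSeq 3′ end lies outside the last 500 bases searched for Amy2a5. Over whole transcripts, 474 of 1518 windows of Amy2b occurred in Amy2a5. The split of counts between the amylases, and the count of Try10, is therefore less certain than that of the other 3, and Ctrc overlaps the antisense gene Ctrcos on the opposite strand, which had 2 to 39 UMIs in the acinar cells of a mouse.

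The stretches before the start of the amylases and of Pnliprp2 are shown because these are the members whose promoters held 1 of the searched motifs. The promoter table used here, from RefSeq (GRCm38.p6), matched 4 of the 6 members, and Try10 and Ctrc are named only. Each sequence is the 250 bases before the start, 5′ to 3′ on the strand of the gene, with capitals marking an E-box of the 2 kinds bound by PTF1, CACCTG or CAGCTG.
Pnliprp2 (chr19:58759473-58759722, plus strand): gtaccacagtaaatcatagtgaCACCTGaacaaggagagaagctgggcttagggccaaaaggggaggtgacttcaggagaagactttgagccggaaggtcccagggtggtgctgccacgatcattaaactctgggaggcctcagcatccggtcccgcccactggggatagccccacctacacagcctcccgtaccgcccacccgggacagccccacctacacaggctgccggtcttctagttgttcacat
Amy2b (chr3:113156728-113156977, minus strand): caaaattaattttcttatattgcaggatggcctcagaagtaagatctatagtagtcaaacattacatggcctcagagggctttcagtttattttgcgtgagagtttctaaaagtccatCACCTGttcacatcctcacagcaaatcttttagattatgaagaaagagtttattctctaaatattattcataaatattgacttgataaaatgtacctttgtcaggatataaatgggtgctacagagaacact
Amy2a5 (chr3:113258700-113258949, minus strand): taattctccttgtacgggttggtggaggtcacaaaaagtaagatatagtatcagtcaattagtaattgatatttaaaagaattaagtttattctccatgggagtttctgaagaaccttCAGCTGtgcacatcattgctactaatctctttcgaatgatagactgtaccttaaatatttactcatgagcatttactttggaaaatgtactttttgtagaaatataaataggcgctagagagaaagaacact

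The E-box lay 132 bases before the start in both amylases, as CACCTG in Amy2b and as CAGCTG in Amy2a5, and 228 bases before the start as CACCTG in Pnliprp2. These distances count from the RefSeq starts. GENCODE M21 places the start of Amy2a5 farther upstream, so that its E-box and part of its stretch lie within the GENCODE gene given above, and the last bases of the Pnliprp2 stretch do so too. On either strand, 20.2% of 32851 promoters of the same genome held CACCTG and 16.3% held CAGCTG. Of the other motifs searched, TGGGAA (in 25.6% of promoters), CAAGGTCA (1.56%) and AGATAA (11.2%) occurred in none of the 4 members, and the promoter of Pla2g1b held none of the 5. The 2 amylase stretches were 63.9% identical over 263 aligned positions. A match is a string of letters and not a measured binding site.

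The libraries held 4327 to 15138 cells and 15469018 to 64784216 UMIs. Acinar labels covered 853 and 917 cells in WT (19.7% and 14.5% of all cells), 594, 807 and 2130 cells in i4F (6.05%, 9.82% and 28.0%), and 1542 and 1094 cells in caerulein mice (10.2% and 15.5%). The label is Acinar in WT and caerulein mice and is split into Acinar_1 and Acinar_2 in i4F mice. The acinar cells of WT were shallow, with medians of 431 and 502 UMIs, against 1933, 2020 and 606 in i4F and 2213.5 and 1322.5 in caerulein mice. Depth here and below counts only UMIs of genes with a row, which some digestive enzymes lack. The library labelled i4F 3 stood apart from the other i4F libraries: 2071 of its 2130 acinar cells were Acinar_1, against 11 of 594 and 61 of 807. It carried rtTA at 46.7 CPM (UMIs per 1000000 listed UMIs of the cells summed) over all cells, against 42.5 and 48.3 CPM in i4F 1 and i4F 2 and at most 0.951 CPM in WT and caerulein mice. It held Pou5f1 (Oct4) at 0.194 CPM (3 UMIs), against 2.54 and 8.34 CPM (154 and 315 UMIs) in i4F 1 and i4F 2. Pou5f1 stood at 0.951 and 0.145 CPM (16 and 3 UMIs) in WT, and at 0.479 and 1.87 CPM (31 and 32 UMIs) in caerulein mice. Whether the cassette was induced in i4F 3 was not tested. The group comparisons in CPM are therefore given with and without i4F 3, and those per cell with all mice only. The acinar labels follow the 6 genes among others, so leaving out i4F 3 was not independent of their levels. An adjusted p without this mouse does not allow for that choice. Within the 7 libraries 366 cell barcodes occurred in more than 1.

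As a check of the label, the acinar markers of a fixed list other than the 6 genes (Cuzd1, Rbpjl and Bhlha15 are the 3 that have rows) together held 6442 and 6950 CPM in the acinar cells of WT, 534 to 3307 CPM in i4F and 502 and 506 CPM in caerulein mice. The 10 ductal markers together held 8844 and 6780 CPM in WT, 23792, 14184 and 7743 CPM in i4F 1, i4F 2 and i4F 3, and 55589 and 60624 CPM in caerulein mice, most of it Clu. The ductal channel gene Cftr had 0 UMIs in both WT mice and stood at 0.7 to 3.8 CPM in the others. A floor of 3 counts was 3.91 and 3.67 CPM in these WT cells, so Cftr was too low to compare. The 7 macrophage markers held 22.2 and 94.2 CPM in WT, 230 to 865 CPM in i4F and 1282 to 2333 CPM in caerulein mice. The 5 neutrophil markers held 1.22 to 2.61 CPM in WT, 15.9 to 138 CPM in i4F and 87.6 to 219 CPM in caerulein mice. Other lists were lower outside WT: the 4 endocrine markers with rows held 579 and 823 CPM in WT, 7.93 to 139 CPM in i4F and 5.94 and 31.8 CPM in caerulein mice, and the 6 endothelial markers 229 and 254 CPM, then 41.9 to 109 CPM, then 28.5 and 68.4 CPM. The 7 stellate markers held 348 to 1379 CPM and the 3 plasma cell markers 0 to 1035 CPM over all mice, and the B, T and NK, dendritic and lymphatic lists at most 91.1 CPM. The deposited mitochondrial share of an acinar cell had medians of 0.973% and 0.415% in WT, 0.362% to 0.427% in i4F and 0.112% and 0.147% in caerulein mice. The part of RNA from other cells, or of cell quality, in the differences below was not tested.

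As a group, the 6 genes made up 5.75% and 7.25% of all UMIs of WT acinar cells, 0.200%, 0.518% and 3.07% in i4F 1, i4F 2 and i4F 3, and 0.395% and 0.297% in caerulein mice. The tables hold rows for only some of the digestive enzymes, so these percentages and all CPM are out of the listed UMIs. The i4F and caerulein mice all lay below WT on this scale, and i4F 3 lay between WT and the other i4F mice.

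For the lipid enzymes, Pnliprp2 stood at 21149 and 21984 CPM in WT, at 1114, 2446 and 10461 CPM in i4F, and at 1933 and 1797 CPM in caerulein acinar cells. Pla2g1b stood at 21719 and 34829 CPM in WT, at 343, 1476 and 13141 CPM in i4F, and at 1074 and 470 CPM in caerulein acinar cells. For both genes every i4F and caerulein mouse was below both WT mice, and i4F 3 was above the 2 other i4F mice and both caerulein mice. The means were 21567 ± 591 (SD, n = 2), 4674 ± 5056 (n = 3) and 1865 ± 96.1 (n = 2) CPM for Pnliprp2, and 28274 ± 9271, 4986 ± 7084 and 772 ± 427 CPM for Pla2g1b in WT, i4F and caerulein mice. The SD of i4F exceeded its mean for both.

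For the amylases, Amy2b stood at 5902 and 3660 CPM in WT, at 123, 450 and 2373 CPM in i4F, and at 108 and 102 CPM in caerulein acinar cells. Amy2a5 stood at 2196 and 5421 CPM in WT, at 107, 292 and 2342 CPM in i4F, and at 102 and 45.4 CPM in caerulein acinar cells. Amy2a5 was the 1 member whose i4F and WT ranges overlapped, since i4F 3 lay above WT 1. Both amylases were higher in each i4F mouse than in either caerulein mouse, and the 2 caerulein mice were within 105 ± 4.47 (SD) CPM for Amy2b and 73.6 ± 39.9 CPM for Amy2a5.

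For the proteases, Try10 stood at 4295 and 3851 CPM in WT, at 286, 409 and 1642 CPM in i4F, and at 662 and 489 CPM in caerulein acinar cells. Ctrc stood at 2230 and 2783 CPM in WT, at 29.2, 109 and 760 CPM in i4F, and at 73.0 and 62.8 CPM in caerulein acinar cells. In i4F 1 and i4F 2 Try10 was lower than in both caerulein mice, the only member of which this held. Relative to the mean of WT, the 6 genes ranged from 1.16% to 7.01% in i4F 1, from 4.34% to 11.3% in i4F 2, from 30.3% to 61.5% in i4F 3, from 2.26% to 16.2% in caerulein 1 and from 1.19% to 12% in caerulein 2.

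**Figure D1:**
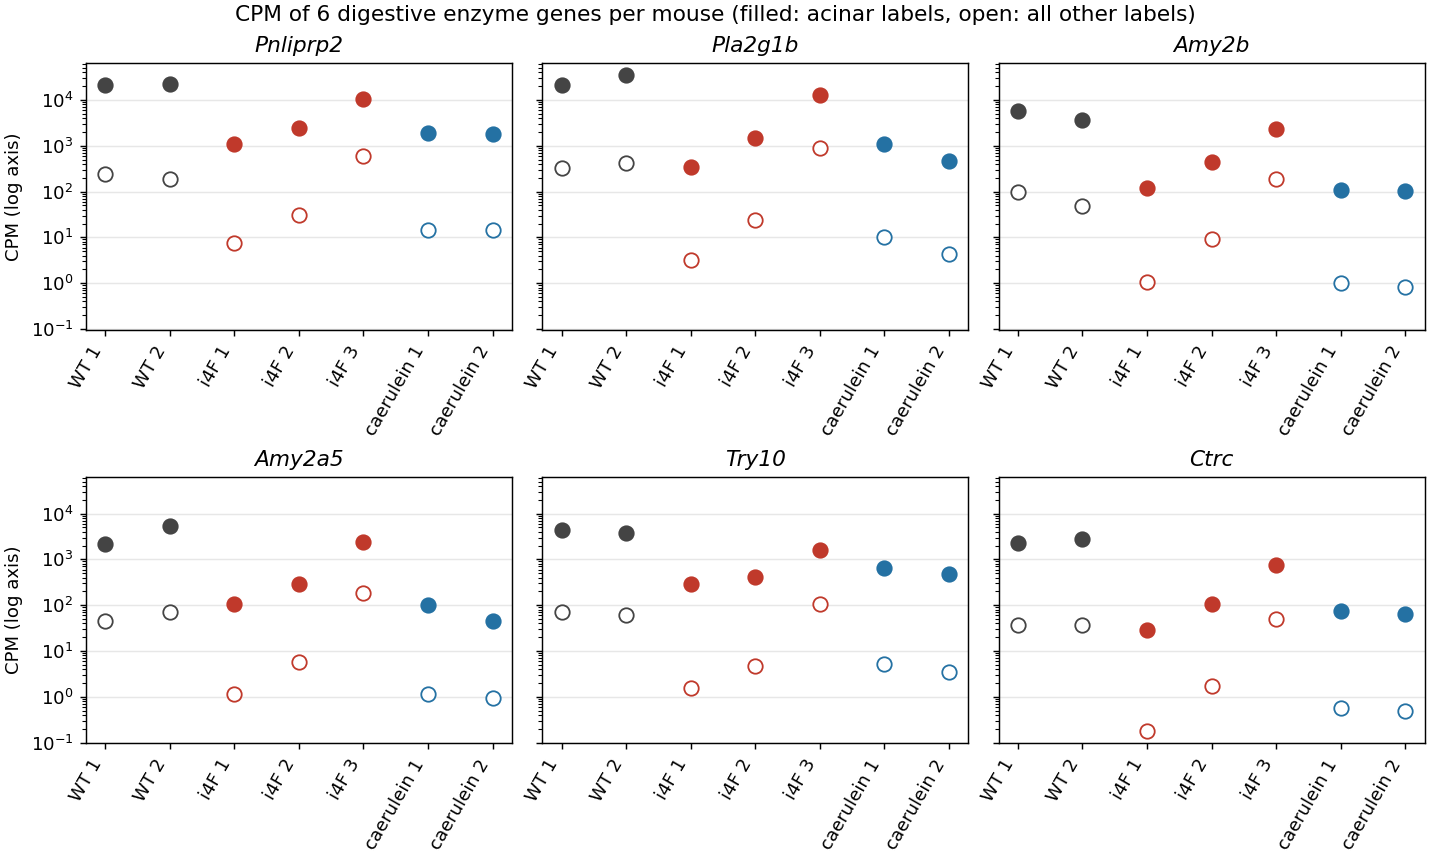
Level of each of the 6 genes (CPM, log axis) by mouse, 1 panel per gene, with a filled point for acinar-labelled cells and an open point for all other cells of the same mouse. Among filled points the 2 WT mice lie highest except for Amy2a5, where i4F 3 (2342 CPM) lies above WT 1 (2196 CPM), and i4F 3 lies above the other i4F mice in all 6 panels.

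The comparison of i4F with WT asks what 7 days of reprogramming factor induction did to enzyme RNA in acinar cells. With all mice, none of the 6 members passed the test in acinar cells (edgeR quasi-likelihood test, adjusted p of 0.165 to 0.371, and 2 of 6 at an unadjusted p under 0.05), although all 6 estimates were negative, from -1.86 for Amy2a5 to -2.87 for Ctrc on the log2 scale. Amy2a5 was at -1.01 without WT 2. In this fit 0.0808% of the 11134 genes tested were called. By rank alone, 5 of the 6 members had every i4F mouse below both WT mice, and 16% of 13860 genes with at least 10 UMIs did. By DESeq2, 1 of the 3 members with an adjusted p was called, as were 878 of 9109 genes. At an unadjusted p under 0.05 the edgeR test had 2796 of the 11134 genes.

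Without i4F 3 all 6 members fell. In that fit Pnliprp2 changed by -3.98 ± 0.40 (log2 fold change ± SE, edgeR adjusted p = 1.01e-04), Pla2g1b by -5.35 ± 0.74 (adjusted p = 5.88e-04) and Try10 by -3.92 ± 0.32 (adjusted p = 3.84e-05). Ctrc had the largest change, -5.57 ± 0.56, a 47.4-fold lower level, and the amylases changed by -4.45 ± 0.55 and -4.65 ± 0.65. Of all genes tested, 15.4% were called lower in that fit. The calls thus rest on whether i4F 3 is counted with the other i4F mice, and 2 mice then stand against 2.

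The comparison of caerulein with WT asks the same of a chemically induced pancreatitis. In the fit of all mice none of the 6 passed (edgeR adjusted p of 0.0895 to 0.129, 6 of 6 at an unadjusted p under 0.05, and 3 of the 3 with an adjusted p by DESeq2), while 0.0359% of all genes did. Over all genes, 2442 of 11134 had an unadjusted p under 0.05 and 857 of 11438 were called by DESeq2. Both caerulein mice lay below both WT mice for 6 of 6 members, as for 13.2% of 13085 genes. The estimates were -3.40 ± 1.04 for Try10 and -4.12 ± 1.23 for Pnliprp2, and -5.76 ± 1.84, -5.79 ± 1.62, -6.09 ± 1.54 and -6.25 ± 1.74 for Pla2g1b, Ctrc, Amy2b and Amy2a5. The 3 groups share 1 estimate of spread, which the i4F mice widen.

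When caerulein and WT mice were fitted alone, all 6 members fell, with edgeR adjusted p from 1.13e-04 for Ctrc to 0.0011 for Pla2g1b and Amy2a5. 13.9% of all genes were called lower there. The amylases had the largest falls, to levels 70.6-fold (Amy2b) and 78.8-fold (Amy2a5) lower, and Try10 the smallest, 10.9-fold. All 6 were also called without i4F 3 (adjusted p of 1.10e-04 to 7.57e-04), as were 11% of all genes in that direction. The sizes hardly differed between the fits, and the errors did: that of Amy2b was 1.54 with all mice, 0.60 without i4F 3 and 0.37 with 2 groups.

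Both comparisons above use the same WT mice. The comparison of i4F with caerulein mice coincides with the series of library names (AL and AM) and with the presence of doxycycline, and these cannot be told apart. Between i4F and caerulein mice 0 of 6 members were called with all mice (edgeR adjusted p of 0.171 to 0.533, 2 of 6 at an unadjusted p under 0.05, and 1 by DESeq2), against 0.126% of all genes, 2090 of 11134 at an unadjusted p under 0.05 and 536 of 11903 by DESeq2. The estimates were all positive, from 1.14 ± 0.90 for Try10 to 4.40 ± 1.55 for Amy2a5. Amy2b and Amy2a5 were the 2 members higher in every i4F mouse than in both caerulein mice, which held for 7.42% of 15158 genes. Without i4F 3 Amy2b alone was called, higher in i4F by 1.65 ± 0.50 (adjusted p = 0.0388), beside 13% of genes called higher. With the replicate number as a block, a fit that also removes i4F 3, none was called (lowest edgeR adjusted p of 0.0566), beside 2136 of 11134 genes. In the fit without i4F 3 and without the block, Amy2a5 had nearly the same estimate as Amy2b, 1.60 ± 0.58 (edgeR adjusted p = 0.0723). In that fit Pnliprp2 (0.14 ± 0.36), Pla2g1b (0.41 ± 0.61) and Ctrc (0.22 ± 0.47) were near 0 and Try10 was negative (-0.52 ± 0.29).

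**Figure D2:**
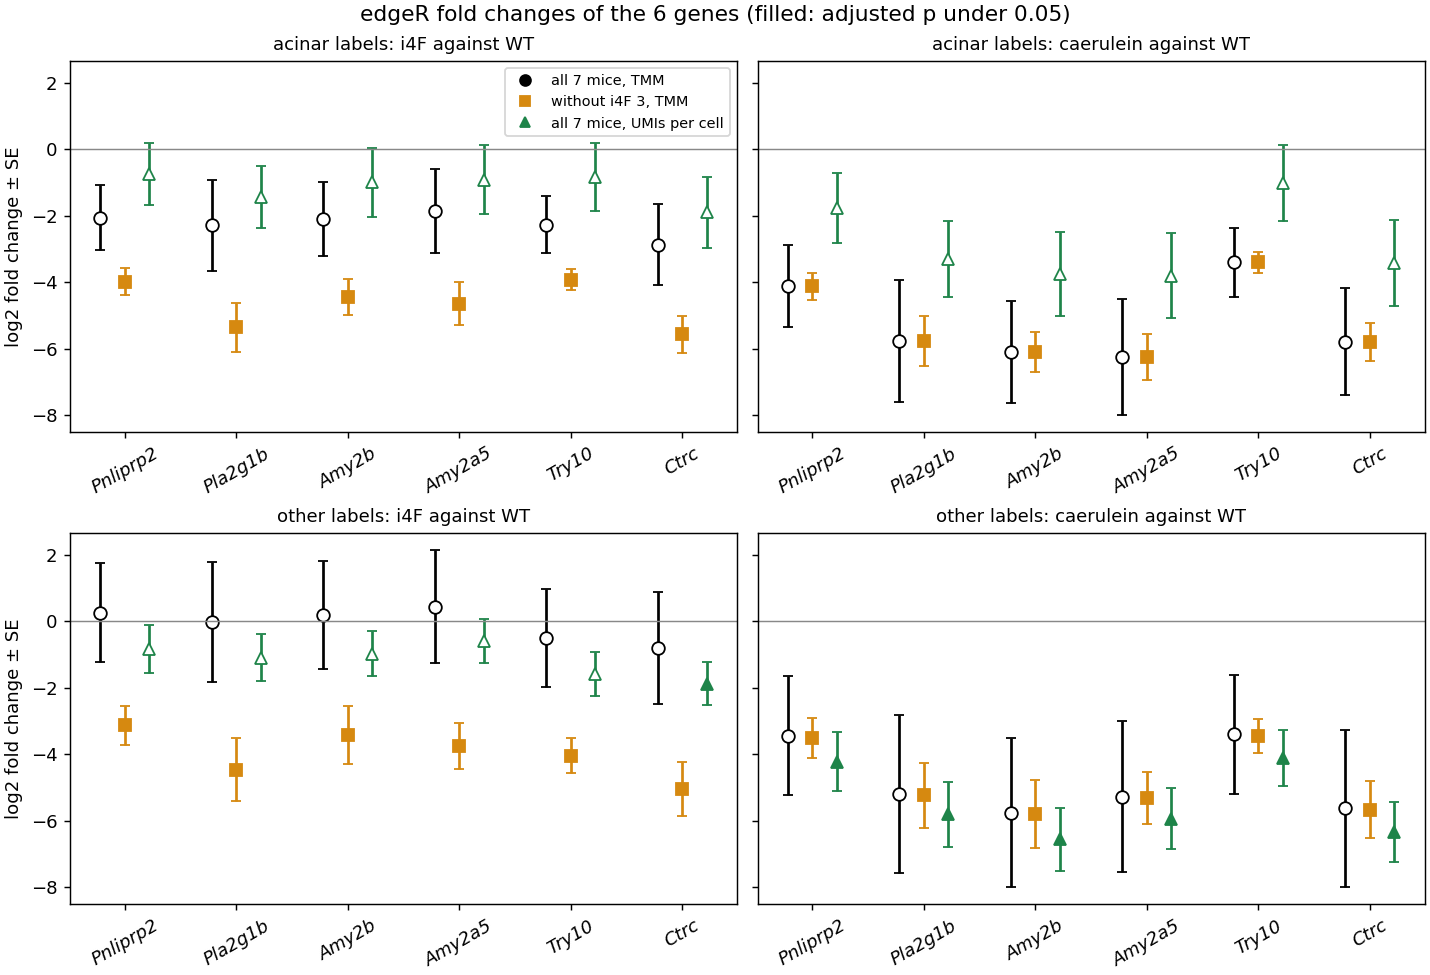
Log2 fold change ± SE of the 6 genes against WT, for i4F and caerulein mice in acinar-labelled (top) and other cells (bottom), fitted with all 7 mice (circles), without i4F 3 (squares) and per cell (triangles, a scale described below), filled where the adjusted p is under 0.05. In acinar-labelled cells all estimates are negative in the 3 fits, and those of i4F against WT move from between -1.86 and -2.87 with all mice to between -3.92 and -5.57 without i4F 3.

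A level in CPM also depends on what else a cell holds. Acinar cells of WT held means of 900 and 891 listed UMIs, those of i4F 5943, 5539 and 1355, and those of caerulein mice 3822 and 2213. The same number of enzyme molecules is therefore a smaller part of these listed totals outside WT. Enzymes without a row are missing from the totals, and their part in the difference in depth was not tested. Counted per cell, the 6 genes together had 51.7 and 64.7 UMIs per acinar cell in WT, 11.9, 28.7 and 41.6 in i4F, and 15.1 and 6.57 in caerulein mice. The order of the groups was as in CPM, and the distances were smaller.

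By gene, Pnliprp2 had 19.0 and 19.6 UMIs per acinar cell in WT, 6.62, 13.6 and 14.2 in i4F and 7.39 and 3.98 in caerulein mice. Try10 had 3.86 and 3.43, then 1.70, 2.26 and 2.23, then 2.53 and 1.08. Amy2a5 had 1.98 and 4.83, then 0.633, 1.62 and 3.17, then 0.389 and 0.101, again with i4F 3 between the WT mice. On this scale i4F 2 lay near i4F 3 for Pnliprp2 and Try10, whereas in CPM it lay near i4F 1.

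Fitted per cell, with cell numbers in place of library totals, none of the 6 members was called in acinar cells. The estimates against WT were -0.75 to -1.90 in i4F (edgeR adjusted p of 0.114 to 0.454, 0 of 6 at an unadjusted p under 0.05, with 0.0702% of all genes called lower and 6603 of 11400 at an unadjusted p under 0.05 in either direction) and -1.01 to -3.80 in caerulein mice (adjusted p of 0.0549 to 0.427, 4 of 6 at an unadjusted p under 0.05, with 0.132% called lower and 4740 of 11400 at an unadjusted p under 0.05). The median of all genes was 2.74 and 2.44 higher than in WT on this scale. For i4F against caerulein none of the 6 was called (adjusted p of 0.44 or above, 2 of 6 at an unadjusted p under 0.05, as 651 of 11400 genes were), and 1.66% of genes were called higher. This scale was added after the data were seen, and how far UMIs per cell follow the RNA content of a cell and how far the capture of a library was not tested.

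The share of acinar cells with at least 1 UMI of a gene separated the members. Pnliprp2 was found in 97.8% and 96.7% of WT acinar cells, in 70.4%, 80.5% and 97.8% in i4F, and in 90.7% and 82.8% in caerulein mice. Ctrc was found in 67.8% and 72.4%, then in 13.5%, 33.0% and 48.1%, then in 21.1% and 12.1%. In the other cells of the same mice, at median depths of 3941 and 3186 UMIs in WT, 4411, 2568 and 1528.5 in i4F and 3398 and 2069 in caerulein mice, Pnliprp2 was found in 54.2% and 35.2%, then in 3.34%, 10.9% and 61.3%, then in 4.10% and 2.66% of cells. Ctrc was found there in 0.11% to 13.9%. Every acinar share was above that background share of its own mouse.

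At a common depth of 500 UMIs per cell, with 361 and 461 WT, 469, 697 and 1234 i4F and 1375 and 903 caerulein acinar cells deep enough to enter, Ctrc was found in 70.6% and 73.1% of WT acinar cells, in 2.8%, 11.3% and 33.0% in i4F, and in 5.6% and 3.4% in caerulein mice. Pnliprp2 was found in 96.1% and 94.8%, then in 51.2%, 67.9% and 97.2%, then in 60.4% and 58.7%. Equal depth thus left the WT shares near their values, while those of Ctrc were lower in all i4F and caerulein mice and those of Pnliprp2 in all but i4F 3. In other cells at that depth the shares were 0.6% to 28.1% for Pnliprp2 and at most 3.6% for Ctrc.

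Acinar cells also differed among themselves. The share of a cell's UMIs on the 6 genes had medians of 6.29% and 6.93% in WT, 0.232%, 0.885% and 3.39% in i4F, and 0.400% and 0.303% in caerulein mice. In WT the quartiles were close to the median, at 4.57% and 8.02% in WT 1, while in i4F 1 they ran from 0.0111% to 0.657% and in i4F 2 from 0.104% to 1.81%. Acinar cells with no UMI of any of the 6 numbered 2 and 5 in WT, 125 (21.0%), 108 (13.4%) and 2 in i4F, and 55 (3.57%) and 82 (7.50%) in caerulein mice. In i4F 1 and i4F 2 a cell at the 95th percentile still had 1.32% and 2.89%, so the acinar label of these mice spanned cells with none of the 6 and cells with a share well above the median.

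The i4F subclusters also differed within a mouse. Pnliprp2 stood at 7610 CPM in Acinar_1 and 2294 CPM in Acinar_2 of i4F 2, at 11240 and 3202 CPM in i4F 3, and at 1577 and 1110 CPM in i4F 1, whose Acinar_1 held 11 cells. Within Acinar_2, where i4F 3 had 59 cells, its Pla2g1b level of 2499 CPM compares with 341 and 1338 CPM in i4F 1 and i4F 2. In CPM all 6 members were higher in Acinar_1 than in Acinar_2 in i4F 2 and i4F 3. In i4F 1, 5 of the 6 were, and Try10 was at 231 and 286 CPM. Acinar_1 cells were shallower than Acinar_2 cells, with medians of 1017 and 2092.5 UMIs in i4F 2 and 596 and 2014 in i4F 3. Per cell the 6 genes together had 37.7 and 28.0 UMIs in i4F 2, and 41.7 and 38.7 in i4F 3, so these distances were smaller. By cell the order turned in i4F 1: the median share on the 6 genes was 0.171% in its 11 Acinar_1 cells and 0.234% in Acinar_2, with 7.36 and 11.97 of their UMIs per cell. Clusters are made from these genes among others, so this is a description and no test.

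**Figure D3:**
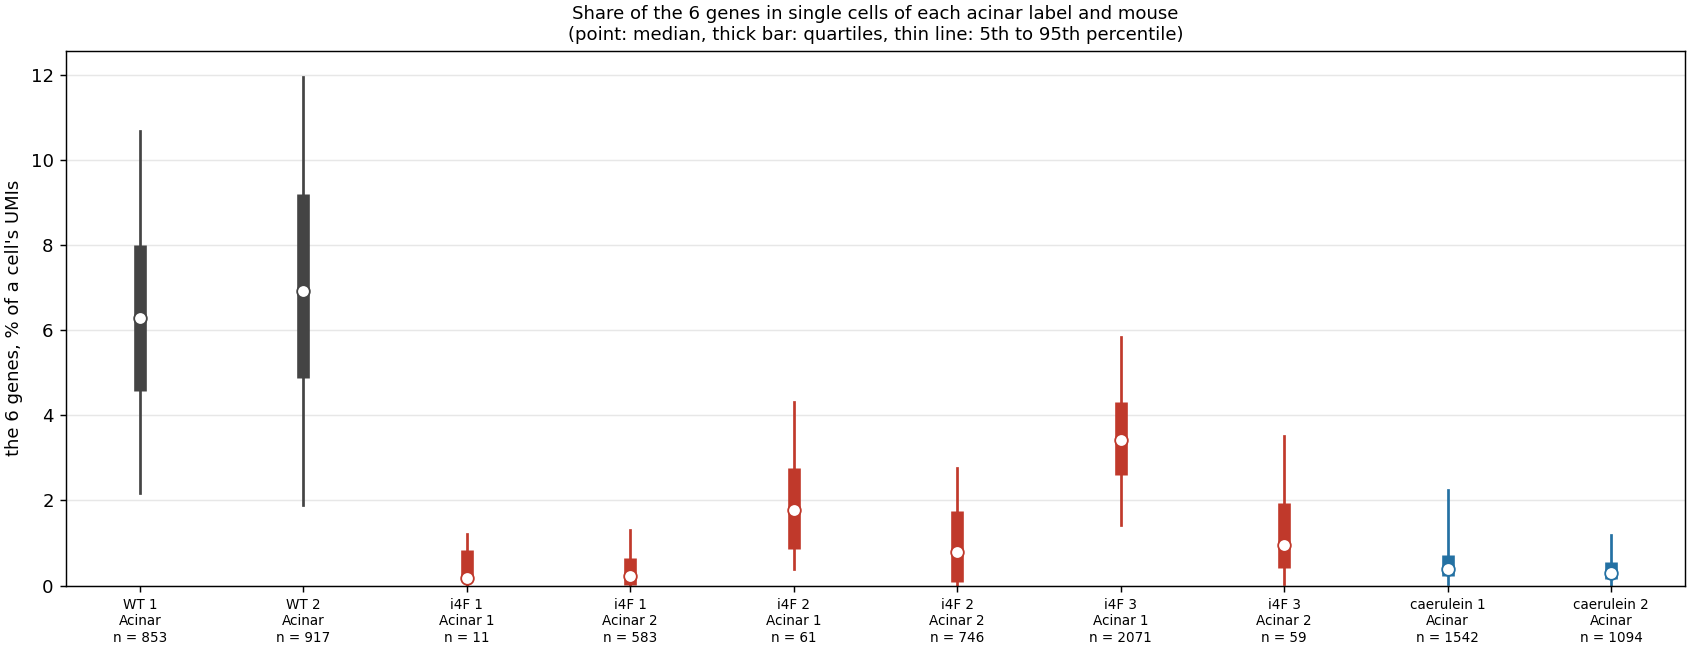
Percent of a cell's UMIs on the 6 genes, by mouse and acinar label, with points at the median over cells, thick bars over the quartiles and thin lines from the 5th to the 95th percentile. The medians of WT 1 and WT 2 are 6.29% and 6.93%, Acinar_1 of i4F 3 lies at 3.43% and of i4F 2 at 1.77%, and the other labels lie at 0.943% or below.

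The 6 genes were also read in cells with other labels, such as endothelial, stellate, ductal and immune cells. The mix of these labels differed between mice. Macrophage labels covered 104 of 3474 and 514 of 5409 other cells in WT, and 7619 of 13596 and 2836 of 5945 in caerulein mice. In i4F 1, i4F 2 and i4F 3 they covered 3495 of 9217, 3257 of 7411 and 480 of 5484. Pnliprp2 stood in other cells at 239 and 191 CPM in WT, at 7.35, 31.0 and 584 CPM in i4F, and at 14.1 and 14.5 CPM in caerulein mice. Ctrc stood at 36.1 and 37.2 CPM, then at 0.175, 1.71 and 50.2 CPM, then at 0.560 and 0.477 CPM. In CPM i4F 3 was the highest of the 7 mice for all 6 members in these cells, although it was below WT in acinar cells for 5 of them. Per cell it was below both WT mice for Ctrc (0.115 UMIs against 0.167 and 0.136). It was also below WT 1 for Try10 (0.243 against 0.324) and Amy2b (0.428 against 0.442), and highest for the other members. In CPM, acinar levels were 48.4 to 115 times those in other cells in WT and 47.7 to 187 times in i4F 1 and i4F 2. They were 12.5 to 17.9 times in i4F 3 and 47.6 to 141 times in caerulein mice. Per cell they were 9.41 to 17.2 times in WT 1 and 15.6 to 28.0 times in WT 2. These per-cell ratios were 89.8 to 180 in i4F 1, 58.8 to 106 in i4F 2 and 7.41 to 10.6 in i4F 3. In caerulein 1 and caerulein 2 they were 76.7 to 121 and 42.7 to 126.

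Per cell, the other cells held 3.76 and 3.06 UMIs of the 6 genes in WT, 0.0898, 0.344 and 4.60 in i4F, and 0.140 and 0.0609 in caerulein mice. At least 1 such UMI was found in 90.8% and 83.9% of other cells in WT and in 94.6% in i4F 3, but in 6.12% and 24.3% in i4F 1 and i4F 2 and in 7.37% and 3.78% in caerulein mice. In WT and i4F 3 the number was much the same in every cell class: from 3.24 (stellate) to 5.37 (lymphatic) UMIs per cell in WT 1, from 2.56 (lymphatic) to 3.91 (ductal) in WT 2 and from 3.69 (endocrine) to 5.14 (B cell) in i4F 3. The ratio of the highest to the lowest class was 1.65, 1.53 and 1.39. In CPM the same ratios were 4.89, 3.46 and 3.81, so classes were closer per cell than per UMI. In i4F 1 and caerulein 1, where a class held 0.0526 to 0.754 UMIs per cell, the ratio was 6.15 and 7.01, the lowest class of i4F 1 being 38 endocrine cells with 2 such UMIs. In i4F 2 the classes held 0.200 to 0.412 UMIs per cell, a ratio of 2.06.

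**Figure D4:**
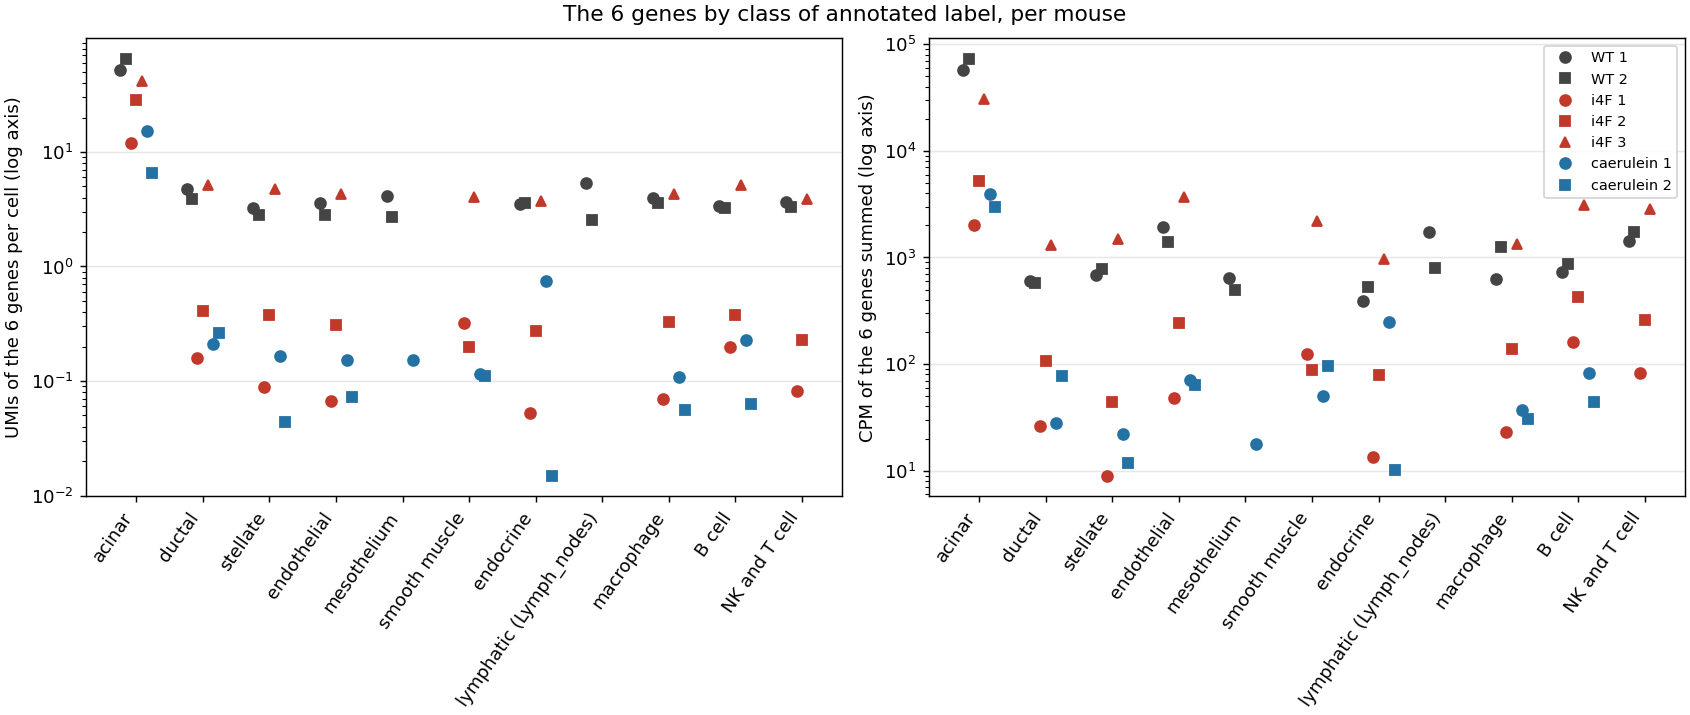
The 6 genes together in each class of annotated label, by mouse, as UMIs per cell (left, log axis) and as CPM (right, log axis). On the left WT 1, WT 2 and i4F 3 hold 2.56 to 5.37 UMIs per cell in every class other than acinar, the other 4 mice hold 0.0149 to 0.754, and the 0 UMIs of mesothelium in caerulein 2 cannot be drawn on the log axis.

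In the test of i4F against WT in other cells none of the 6 was called (edgeR adjusted p of 0.753 to 0.997, estimates of -0.79 to 0.44). At an unadjusted p under 0.05 there were 0 of 6, and DESeq2 called 0 of the members with an adjusted p. No gene was called by edgeR, 0% of 18221, although 6115 had an unadjusted p under 0.05 and DESeq2 called 3822 of 18377. None of the 6 had all i4F mice below WT, which 36% of 23192 genes had. Without i4F 3 all 6 fell, with log2 changes of -3.13 ± 0.60 for Pnliprp2 to -5.04 ± 0.81 for Ctrc (adjusted p of 0.00134 to 0.0162), together with 27.7% of genes. i4F 3 thus turns the direction for 3 of the members in these cells. Per cell, 11.8% of genes were called lower, and of the 6 Ctrc alone was (-1.88 ± 0.65, adjusted p = 0.0275).

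In caerulein against WT, 0 of 6 passed in other cells with all mice (edgeR adjusted p of 0.112 to 0.198), beside 8.45% of all genes. At an unadjusted p under 0.05 there was 1 of 6, beside 7122 of 18221 genes. DESeq2 called 1 of the members with an adjusted p, beside 5216 of 19021 genes. The groups did not overlap for 6 of 6, but 50.3% of genes were lower in the same way. All 6 fell in the fit of these 2 groups alone (adjusted p of 0.00201 to 0.00361, with 25.1% of genes called lower), without i4F 3 (0.00257 to 0.00582, with 27.3%) and per cell (6.1e-09 to 1.00e-04, with 18.2%). The falls in the fit of 2 groups were 10.5-fold for Try10 to 53.3-fold for Amy2b, beside 10.9-fold to 78.8-fold in acinar cells.

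Against caerulein mice, i4F mice had estimates of 2.90 to 5.95 in other cells with none called (adjusted p of 0.324 to 0.504, 2 of 6 at an unadjusted p under 0.05, 1 by DESeq2), and 0.0165% of genes were called, with 2532 of 18221 at an unadjusted p under 0.05 and 797 of 19666 by DESeq2. Without i4F 3 none was called either, with estimates from -0.60 to 2.36 and 3.7% of genes called higher. Amy2b was the 1 member with every i4F mouse above both caerulein mice, as 18.4% of genes were. Per cell all 6 were called higher in i4F with all mice (2.53 to 5.59, edgeR adjusted p of 2.3e-07 to 0.029, with 2.81% of genes called higher). i4F 3 lay far above the others at 4.60 UMIs of the 6 genes per cell. i4F 1 and i4F 2 held 0.0898 and 0.344, against 0.140 and 0.0609 in caerulein mice, so i4F 1 lay below caerulein 1. This scale was not fitted without i4F 3.

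Whether the acinar change differed from that in other cells of the same mice was tested as an interaction. For i4F against WT the differences were -0.32 ± 0.67 for Try10 to -1.08 ± 0.58 for Amy2b, with 0 of 6 called (edgeR adjusted p of 0.313 to 0.822, 0 of 6 at an unadjusted p under 0.05, 0 by DESeq2), while 1.89% of 17240 genes were. For caerulein they were -0.63 ± 0.67 for Amy2a5 to 0.31 ± 0.71 for Try10, again with 0 of 6 called (0 of 6 at an unadjusted p under 0.05, 0 by DESeq2) against 5.76% of genes. Over all genes, 3710 (i4F) and 3917 (caerulein) had an unadjusted p under 0.05, and DESeq2 called 1334 of 11479 and 1630 of 12785. Without i4F 3 the i4F differences were -0.47 ± 0.24 for Amy2b to -0.19 ± 0.30 for Ctrc in 5 members, and Try10 turned to 0.50 ± 0.23. None was called there (edgeR adjusted p of 0.125 to 0.717, 2 of 6 at an unadjusted p under 0.05), against 4252 of 17282 genes called and 5854 at an unadjusted p under 0.05. The caerulein differences without i4F 3 were -0.52 to 0.30, with 0 of 6 called (adjusted p of 0.181 to 0.937, 0 of 6 at an unadjusted p under 0.05) against 3576 genes called and 5280 at an unadjusted p under 0.05. On this scale of library totals, a difference between acinar and other cells in these changes was not detectable with 7 mice. The interaction was not fitted per cell. Per cell, the 6 stood at 7.73% to 46.5% of the WT mean in acinar and 0.716% to 5.03% in other cells of i4F 1. The ranges were 26.8% to 70.2% and 5.08% to 15.4% in i4F 2, and 45.9% to 93.3% and 76.1% to 184% in i4F 3. They were 9.62% to 69.3% and 1.42% to 8.39% in caerulein 1, and 2.95% to 29.7% and 0.650% to 3.97% in caerulein 2. Both classes of cells come from the same library, so the 2 changes are not independent of each other.

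The proportions of the 6 genes were compared between mice. A 3′ assay counts 1 end of each molecule, so the share of a gene among the UMIs of the 6 needs no correction for length. In acinar cells Pnliprp2 made up 36.8% and 30.3% of these UMIs in WT, 55.7%, 47.2% and 34.1% in i4F, and 48.9% and 60.6% in caerulein mice. Try10 made up 7.47% and 5.31%, then 14.3%, 7.89% and 5.34%, then 16.7% and 16.5%. Pla2g1b went the other way, with 37.8% and 48.0%, then 17.1%, 28.5% and 42.8%, then 27.2% and 15.8%. Where the summed level was lower, Pnliprp2 and Try10 thus took a larger share and Pla2g1b a smaller one, and i4F 3 lay between the 2 WT mice for all 3.

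The amylases together made up 14.1% and 12.5% of the 6 in WT, 11.5%, 14.3% and 15.3% in i4F, and 5.31% and 4.96% in caerulein acinar cells. Their share in caerulein mice was thus below that of each WT and i4F mouse, and the i4F mice lay around WT. In other cells the amylases made up 17.3% and 14.2%, then 15.2%, 19.8% and 18.6%, then 6.77% and 7.18%, in the same order of groups. The exact 95% binomial intervals, which cover counting error only, were 13.8% to 14.4% for the acinar cells of WT 1 and 4.47% to 5.48% for those of caerulein 2. These shares were compared over mice as a description, without a test.

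Between the amylases, Amy2b took 72.9% and 40.3% of their UMIs in acinar cells of WT 1 and WT 2, 53.5%, 60.7% and 50.3% in i4F, and 51.5% and 69.1% in caerulein mice. The WT mice lay at the opposite ends of this range, so the ratio differed between mice of 1 group by more than between groups. In other cells the share was 67.8% and 41.3% in WT, 48.4%, 62.1% and 49.97% in i4F, 46.5% in caerulein 1 and 46.2% in caerulein 2, the latter with 26 amylase UMIs and an interval of 26.6% to 66.6%. How far reads common to both genes enter this ratio was not tested.

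**Figure D5:**
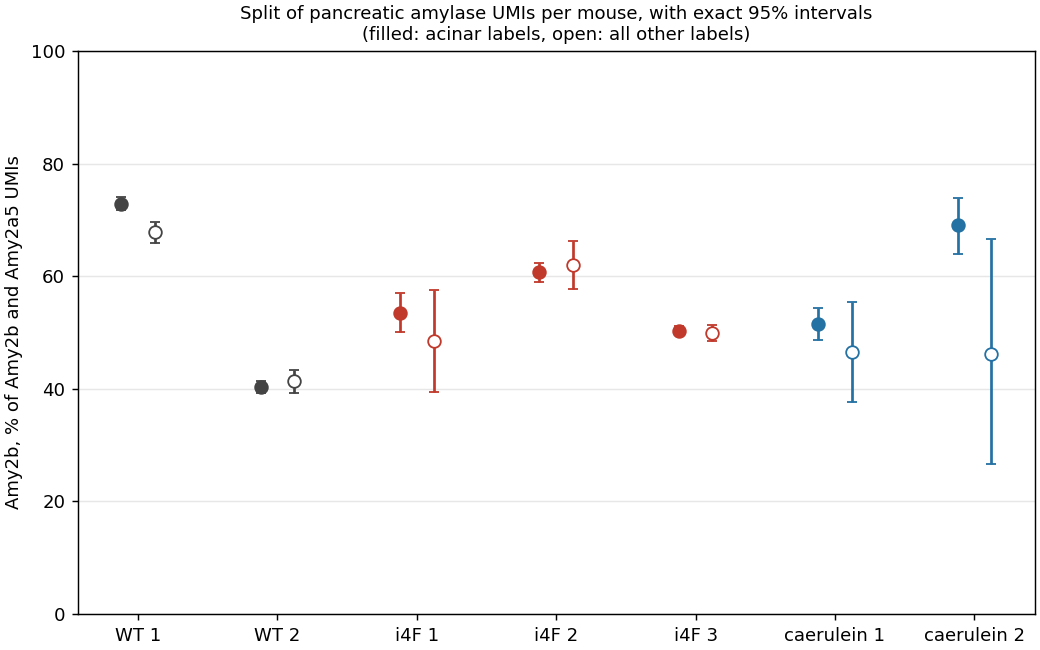
Percent of the UMIs of both amylases that were assigned to Amy2b, by mouse, in acinar-labelled (filled) and other cells (open), with exact 95% binomial intervals. WT 1 (72.9%) and WT 2 (40.3%) lie at the ends of the range of acinar-labelled cells, and the open and filled points of a mouse lie farthest apart in caerulein 2 (69.1% and 46.2%).

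The makeup in other cells was not an exact copy of that in acinar cells. Pnliprp2 was a smaller part of the 6 in other cells than in acinar cells of WT 1 and WT 2 (-7.38 and -7.41 percentage points), i4F 2 (-6.72), i4F 3 (-4.93) and caerulein 1 (-5.20). The same held in i4F 1 (55.7% in acinar and 50.6% in other cells) and caerulein 2 (60.6% and 58.8%).

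Of 40 further exocrine genes in a fixed list, 20 had rows: 3 of 15 proteases, none of 4 lipases and cofactors, Amy1, 4 granule or inhibitor genes, 7 of 7 transcription factors and 5 of 5 genes of the endoplasmic reticulum. The rest were not analysed here. In acinar cells with all mice none of the 20 was called against WT (edgeR), although 18 of 20 estimates were negative in i4F (median -1.74 on the log2 scale, beside 0.14 over all genes) and 18 of 20 in caerulein mice (median -2.14, beside 0.10). At an unadjusted p under 0.05 there were 6 and 10 of 20, and DESeq2 called 4 and 8 of the 19 with an adjusted p, all lower, where it called 335 of 9109 and 541 of 11438 genes lower. Without i4F 3, 16 of 20 fell in i4F and none rose, beside 1706 genes called lower and 1924 called higher of 11107. The leading ones were Rbpjl, the PTF1 subunit (-5.01 ± 0.26, adjusted p = 7.64e-06), Erp27, a disulfide isomerase family protein of the endoplasmic reticulum (-3.75 ± 0.26), and Tmem97, a membrane protein known as the sigma-2 receptor (-3.49 ± 0.27). In caerulein mice 13 of 20 fell in that fit, beside 1222 of 11107 genes, led by Erp27 (-3.53 ± 0.26), Amy1, the salivary-type amylase (-5.74 ± 0.44), and Cuzd1, a zymogen granule protein (-4.61 ± 0.38). The list looked different per cell with all mice: 11 of 20 estimates were negative in i4F (median -0.25) and 10 of 20 in caerulein mice (median 0.19). On that scale Reg2 and Mecom were called higher in i4F and none lower, beside 4407 genes called higher and 8 lower of 11400, and in caerulein mice Pdia2 was called lower and none higher, beside 15 and 543 genes.

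Set against caerulein without i4F 3, i4F acinar cells were higher in 3 of the 20 genes and lower in 6, beside 1447 and 1049 of 11107 genes. The higher ones were Amy1 (2.01 ± 0.38), Gp2, the main membrane protein of zymogen granules (1.64 ± 0.39), and Cuzd1 (1.27 ± 0.33). The lower ones were led by Rbpjl (-2.58 ± 0.24), Tmem97 (-2.33 ± 0.25) and Nr5a2, a nuclear receptor of acinar identity (-1.63 ± 0.28). Amy1 thus stood with Amy2b on the higher side in i4F. In other cells with all mice Serp1, a stress-associated membrane protein of the endoplasmic reticulum, was the 1 gene of the 20 that was called, higher in caerulein mice by 1.94 ± 0.31 (adjusted p = 0.0324), beside 1060 of 18221 genes called higher. Serp1 was no longer called without WT 1, WT 2, i4F 2, caerulein 1 or caerulein 2 (1.59 to 2.33, edgeR adjusted p of 0.0657 to 0.226), fits in which no gene was, and per cell 14 of 19 list genes were called lower in caerulein mice and none higher, beside 3409 and 496 of 18759 genes. Without i4F 3, 14 of the 18 list genes tested in other cells fell in i4F and 3 rose, beside 5197 and 4497 of 18790 genes.

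The levels of the members followed each other over 92 sums per mouse and annotated label of at least 20 cells, with pairwise Pearson r of 0.877 to 0.960 on log2(CPM + 1). Outside the 6, the genes most like their mean among 8877 genes with a mean of at least 10 CPM were Pdia2 (r = 0.975), a pancreatic protein disulfide isomerase, Aqp12 (0.953), a pancreatic aquaporin, Amy1 (0.946), Gp2 (0.945) and Cuzd1 (0.944). The sums share libraries, free RNA and depth, so these values describe likeness and carry no test.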

How the data were processed

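Single-cell RNA libraries of 7 mouse pancreata (2 WT, 3 i4F, 2 caerulein) were analysed. According to the methods, the authors aligned reads to GRCm38 (mm10) with Cell Ranger, corrected ambient RNA with SoupX, removed cells with few genes or a high mitochondrial share, and named clusters by hand from markers in each condition separately. The deposited counts are whole UMI counts per gene and cell, 1 table per condition, with the library and cluster name of each cell. The metadata, as computed by the authors, also give the percent of each cell's UMIs on mitochondrial genes, given here by its median per mouse. The sources used here do not say if these counts were taken before or after SoupX, which bears on every level in non-acinar cells. The submitters' processing notes give no version for Cell Ranger. Sums of all 58473 cells matched their deposited totals.

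UMIs were summed per mouse over acinar labels and over other labels. Sums were tested across all genes with the quasi-likelihood test of edgeR 4.0.16 in R 4.3.3 (TMM, filterByExpr, 3 groups, two-sided, Benjamini-Hochberg adjustment, threshold 0.05), with at least 20 cells per mouse, and the interaction with the mouse as a block. SE is the log2 fold change divided by the root of F. CPM is UMIs per 1000000 listed UMIs of the cells summed. The mouse was the replicate, and each mouse is 1 library. On simulated sums the test recovered 29% and 93% of genes planted at a log2 change of 2 and 4 in acinar labels of i4F, and 23% and 88% in those of caerulein mice (11134 genes). These simulated mice held no deviating library.

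The named genes are the 6 members, up to 3 genes per direction with the smallest adjusted p of the exocrine list, and the 5 genes most alike in level. Other genes named for a check (rtTA, Pou5f1, Gm5409, Ctrcos and single markers) were chosen after their values were seen. The members and lists were chosen with earlier results of these data known. Alternatives were DESeq2 1.42.0, no TMM, scaling without exocrine genes, no filter, 2 groups alone, a block for the replicate number, a term for the series of library names, only cells with 500 or more genes, cells thinned to 500 UMIs, doublets marked by Scrublet (scanpy 1.11.5, Python 3.11.15) left out, and each mouse left out. Scrublet marked 2 cells in WT 1 and 0 in i4F 3, so it did not work there, and doublets were otherwise kept. UMIs per cell and a crossed block were added after seeing the data. DESeq2 gave no adjusted p for some members, so its counts are out of those with an adjusted p. Binomial intervals (scipy 1.17.1) are exact. Motifs and positions came from RefSeq (GRCm38.p6) and GENCODE M21.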

Additional observations from a re-analysis of the deposited data

Results flagged for a closer look

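None of the 6 enzyme genes met a rule for a closer look, and groups of 2 and 3 mice are too small for the search for single deviating samples. In the exocrine list, the change against WT differed between acinar and other cells of the same mice (edgeR interaction test over 17240 genes) for 4 genes. In i4F mice the change in acinar cells minus that in other cells was 3.99 ± 0.82 (log2 ± SE, adjusted p = 0.0418) for Mecom, -3.64 ± 0.77 (adjusted p = 0.0440) for Tmem97 and -3.12 ± 0.51 (adjusted p = 0.0265) for Serp1. In caerulein mice it was 3.70 ± 0.61 (adjusted p = 0.0113) for Nr5a2, 3.83 ± 0.88 (adjusted p = 0.0303) for Mecom and -4.25 ± 0.56 (adjusted p = 0.00588) for Serp1. Without i4F 3 these were 4.49 ± 0.68 (adjusted p = 4.39e-06), -4.56 ± 0.22 (1.65e-16) and -3.69 ± 0.21 (1.13e-14) in i4F, and 3.72 ± 0.37 (3.22e-09), 3.79 ± 0.70 (1.20e-04) and -4.25 ± 0.21 (9.30e-16) in caerulein mice, in the same order and the same edgeR test. Without WT 1 or WT 2 all of them were lost (edgeR adjusted p of 0.278 to 0.338 in i4F and 0.115 to 0.215 in caerulein mice), while all genes called fell from 326 to 4 and 0 in i4F and from 993 to 7 and 4 in caerulein mice. In i4F the 3 calls were also lost without i4F 2 (0.0870 to 0.148), and those of Mecom and Tmem97 without i4F 1 (0.0734 and 0.0658). In caerulein mice Mecom was also lost without either caerulein mouse (0.0976 and 0.142), and Nr5a2 without caerulein 1 (0.0617). Mecom had only 2 and 3 UMIs in the acinar cells of WT (2.61 and 3.67 CPM), at or under a floor of 3 counts, so the size of its change depends on the prior count of the fit and is no bound. Mecom and Nr5a2 encode transcription factors, and Serp1 and Tmem97 encode proteins of the endoplasmic reticulum. Other cells pool classes whose mix differed between mice, and the part of that mix in these differences was not tested. Without i4F 3, Nr5a2 changed in other cells of caerulein mice by -3.66 ± 0.35 against WT (edgeR adjusted p = 8.0e-04). No cause was tested.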

How the results depend on the processing

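The counts of called members depended on i4F 3 and on the fit. In acinar cells, 0 of 6 called with all mice became, for i4F against WT, 1 by DESeq2 (of 3 with an adjusted p) and 6 without a filter, and for caerulein against WT 3 by DESeq2 (of 3), 6 without a filter, 6 with only 2 groups and 5 at 500 UMIs per cell. For i4F against caerulein it became 1 by DESeq2 and 5 without a filter. In other cells, caerulein against WT went from 0 to 1 by DESeq2, 1 without a filter, 6 with only 2 groups and 6 per cell, i4F against WT to 1 per cell, and i4F against caerulein to 1 by DESeq2 and 6 per cell. Without a filter the interaction of i4F called 1 (Amy2b). The calls over all genes moved too, in both directions. In acinar cells, 9 (i4F against WT), 4 (caerulein against WT) and 14 (i4F against caerulein) of 11134 became 2004, 1505 and 1388 of 24025 without a filter and 878 of 9109, 857 of 11438 and 536 of 11903 by DESeq2, and for caerulein against WT 2030 of 8511 with only 2 groups and 318 of 3834 at 500 UMIs per cell. In other cells, 1540 of 18221 (caerulein against WT) became 5216 of 19021 by DESeq2, 2841 of 33251 without a filter and 8209 of 17177 with only 2 groups, and 3 of 18221 (i4F against caerulein) became 797 of 19666 by DESeq2. With only 2 groups the 9 and 14 became 0, and with the series term every comparison of acinar or other cells had 0. Without WT 1, WT 2, i4F 2 or either caerulein mouse, caerulein against WT had 0 in acinar and other cells, and i4F against WT had 0 in both whenever a mouse other than i4F 3 was left out. The i4F interaction went from 326 of 17240 to 1782 of 33681 without a filter. Leaving out each mouse in turn gave 0 to 6 in acinar and other cells for both comparisons with WT, with 3 for caerulein in acinar cells without i4F 1 (beside 301 of 10455 genes) and 6 without i4F 3, and 0 to 1 for i4F against caerulein in acinar cells.

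The replicate numbers do not pair the mice: between WT and caerulein mice of 1 number the deviations correlated at -0.20 in acinar and -0.35 in other cells. Between WT and caerulein mice of unlike number they were the mirror values, 0.20 and 0.35, as 2 mice per group force. Pairs with i4F mice were near 0. With the replicate block, which removes i4F 3 as the only mouse of its number, 6 of 6 were called in both comparisons with WT, in acinar (beside 3292 genes for i4F and 1861 for caerulein, of 11134) and in other cells (8493 and 7906 of 18221). The crossed block gave 6 for caerulein in both, beside 2685 of 8511 and 9478 of 17177 genes. For i4F against caerulein the block called 0 of 6 in acinar cells. With the block Try10 in i4F against caerulein was at -0.50 in acinar and -0.72 in other cells, and other cells of i4F against WT were at -3.29 (Pnliprp2), -3.70 (Amy2b) and -3.91 (Amy2a5).

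Directions turned mostly in other cells of i4F against WT, where estimates were near 0. Without i4F 3 Pnliprp2, Amy2b and Amy2a5 were at -3.13, -3.43 and -3.75, and per cell at -0.83, -0.97 and -0.60. Without TMM Pnliprp2 and Amy2b were at -0.055 and -0.15, and with the series term or without WT 2 Amy2b was at -0.14. Pla2g1b was at 0.31 with the series term, 0.061 without doublets, and 0.31, 0.56 and 0.54 without WT 2, i4F 1 and i4F 2. Try10 was at 0.054 and 0.03 without i4F 1 and i4F 2. Over all mice left out in turn the ranges were -3.13 to 0.81 (Pnliprp2), -4.46 to 0.56 (Pla2g1b), -3.43 to 0.75 (Amy2b), -3.75 to 1.01 (Amy2a5) and -4.04 to 0.054 (Try10). Without i4F 3 Try10 in i4F against caerulein was at -0.52 in acinar and -0.60 in other cells (highest 1.56 and 3.51 with other mice left out), and its i4F interaction at 0.50 (lowest -1.02, and 0.016 without TMM). For the caerulein interaction Pnliprp2, Pla2g1b, Amy2b and Amy2a5 were at 0.37, 0.52, 0.72 and 0.14 without TMM, Pla2g1b and Amy2b at 0.0019 and 0.10 without doublets, Amy2b at 0.02 and 0.10 without WT 2 and caerulein 1 (lowest -0.070), and Ctrc at -0.11 with cells of at least 500 genes. The other 370 and, with a mouse left out, 297 estimates kept their direction. Those of them with an adjusted p also kept their side of the threshold. A further 89 and 25 kept their direction and passed it. The cause was not tested. Dropping TMM moved the median of all genes from 0.14 to 0.32 (i4F) and from 0.10 to 0.68 (caerulein) in acinar cells. In WT, 1 UMI is a large part of an acinar cell's total, which limits what single cells show.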
